A study of Homo sapiens with 25 samples.

Results

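Aminoacyl-tRNA synthetases are the enzymes that load each amino acid onto its transfer RNA before protein synthesis. The 35 genes listed here comprise 19 cytosolic and 16 mitochondrial enzymes, named by the letter of their amino acid (AARS1 for alanine, CARS1 for cysteine), with a final 1 for the cytosolic and a final 2 for most mitochondrial forms. Each gene was represented by the probe set that carries its symbol alone and has the highest mean over all 25 arrays. This gave 32 genes, 17 cytosolic and 15 mitochondrial, out of 19775 genes in the whole table. All 32 were among the 12643 genes that passed a filter on low values, which asked for a log2 value over 4 on 3 or more arrays. The probe sets of MARS1, QARS1 and TARS2 carry several symbols, and these 3 genes were not analysed here.

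As background, human cells hold separate synthetases for cytosolic and mitochondrial protein synthesis, all encoded in the nucleus. GARS1 and KARS1 each encode both the cytosolic and the mitochondrial enzyme for their amino acid, glycine and lysine. Several cytosolic synthetase genes are textbook targets of ATF4, the transcription factor of the amino acid and integrated stress response, which binds C/EBP-ATF response elements in their promoters. Most mitochondrial synthetases are not usually listed among its targets. WARS1, the cytosolic tryptophan enzyme, is also induced by interferon gamma.

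The arrays measured total RNA from cultures of 3 human cell lines given 10 µM erlotinib, an inhibitor of the EGFR kinase. BT20, a breast cancer line that expresses much EGFR, was sampled at 0 min (4 arrays), 30 min, 6 h and 24 h after the drug (3 arrays each). MDA-MB-453, a breast cancer line with high ERBB2, and a line labelled only MCF were each sampled at 24 h and at 0 min (3 arrays per group). No group was kept for the same time without drug, so drug and time in culture cannot be told apart. Whether replicates came from separate cultures is not given in the labels, so p-values rest on the spread between these particular arrays, which may be technical. At 0 min EGFR averaged a log2 value of 12.38 in BT20, ERBB2 11.07 in MDA-MB-453 and ESR1 12.47 in MCF. The leukocyte markers PTPRC and CD3E averaged 1.15 to 2.16 at 0 min over the 3 lines. The endothelial marker CDH5 averaged 11.13 in BT20, with PECAM1 at 3.60. The fibroblast marker COL1A1 averaged 7.96 to 11.11 over the lines, with COL3A1 at 2.31 to 5.08.

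Replicate 4 of BT20 at 0 min stood apart from the other 0 min arrays. Over the genes tested it correlated at 0.990 to 0.992 with the 6 h arrays, against 0.971 to 0.975 with the other 0 min arrays. The labels name no batch, and whether replicate 4 was processed with the 6 h arrays is not given in them. Its place beside them was read from these correlations alone. BT20 results are given against all 4 arrays at 0 min and, where calls differ, also from a fit with a term for replicate 4 and the 6 h arrays, called the replicate 4 term. With that term replicate 4 alone is the control for 6 h, a single array, and replicates 1 to 3 are the controls for 30 min and 24 h. In bulk RNA, fewer cells of a type and less RNA per cell cannot be told apart.

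The promoter sequences below show where the cytosolic and mitochondrial members differ in a feature that the arrays did not measure. RefSeq windows (GRCh38.p14), 250 bases before to 50 after the annotated start, were at hand for 27 of the 32 members. The letters TGATGNAA, the core of the C/EBP-ATF response element, were searched on both strands. They were found in 6 of 14 cytosolic members with a window (42.9%) and in 1 of 13 mitochondrial members (7.69%), against 297 of 10315 genes tested on the arrays (2.88%). By the calls at 24 h in BT20 given below, the match was found in 3 of 7 members called higher, 0 of 7 called lower and 4 of 13 not called. Of those called higher, EPRS1, SARS1, WARS1 and PARS2 held no match. A link between the match and the changes was not tested. Each stretch is written 5′ to 3′ on the gene's strand, with the matched letters in capitals. GARS1 and TARS1 lie on the plus strand and the other 5 genes on the minus strand.
AARS1, chr16:70289678-70289701: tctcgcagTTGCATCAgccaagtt
CARS1, chr11:3057410-3057433: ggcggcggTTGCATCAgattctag
GARS1, chr7:30594837-30594860: cgcggcgaTTTCATCAtgctccga
IARS1, chr9:92293695-92293718: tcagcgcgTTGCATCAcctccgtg
NARS1, chr18:57621807-57621830: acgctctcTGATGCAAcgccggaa
TARS1, chr5:33440959-33440982: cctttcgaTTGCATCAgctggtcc
YARS2, chr12:32756079-32756102: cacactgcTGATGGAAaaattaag

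In AARS1 and YARS2 the match began 187 and 197 bases before the start. In CARS1, GARS1 and IARS1 it began 2, 33 and 13 bases before the start, and in TARS1 and NARS1 it lay just after it. CARS1, GARS1 and TARS1 each have a further annotated start whose window held no match. A gene was counted as matched if any of its windows held the letters. CARS1 was the cytosolic member with the largest called rise at 24 h in BT20. Its window with the match is shown up to the end of the match, on the minus strand at chr11:3057418-3057673.
CARS1: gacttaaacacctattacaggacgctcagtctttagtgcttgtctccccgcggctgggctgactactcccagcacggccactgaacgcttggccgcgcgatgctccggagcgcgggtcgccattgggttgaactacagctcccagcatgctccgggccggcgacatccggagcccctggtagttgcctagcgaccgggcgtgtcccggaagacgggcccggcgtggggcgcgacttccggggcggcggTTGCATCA
The promoter of AARS1, which holds its match further upstream, lies on the minus strand at chr16:70289507-70289756.
AARS1: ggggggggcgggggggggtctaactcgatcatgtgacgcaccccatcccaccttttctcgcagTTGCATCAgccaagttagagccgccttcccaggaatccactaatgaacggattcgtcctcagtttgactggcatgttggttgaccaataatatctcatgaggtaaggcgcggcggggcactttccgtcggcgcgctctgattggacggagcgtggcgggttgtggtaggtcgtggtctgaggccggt
The promoter of PARS2, the mitochondrial proline enzyme, is shown because its transcript was the only mitochondrial member called higher at 24 h in BT20 and in MDA-MB-453. It lies on the minus strand at chr1:54764524-54764773 and holds no match to these letters in its window.
PARS2: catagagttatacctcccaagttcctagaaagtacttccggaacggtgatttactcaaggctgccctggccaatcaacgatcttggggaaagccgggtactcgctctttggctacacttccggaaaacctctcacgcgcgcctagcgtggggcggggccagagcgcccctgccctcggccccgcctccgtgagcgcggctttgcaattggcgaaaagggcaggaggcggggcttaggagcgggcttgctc

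Each change is a difference between group means on the log2 scale, fitted with limma and given with its standard error after ±, and a gene was called where the two-sided p, adjusted by Benjamini-Hochberg over the 12643 genes, was under 0.05. The comparisons of BT20 at 30 min, 6 h and 24 h share the same 0 min arrays.

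At 30 min no synthetase was called in either direction by limma, and none had an unadjusted p under 0.05. Over all genes tested 0% were called higher and 0.00791% lower. Changes ranged from -0.13 to 0.16 among the 17 cytosolic members and from -0.50 to 0.25 among the 15 mitochondrial members. The lowest of these belonged to MARS2, the mitochondrial methionine enzyme, whose 0 min arrays spread most widely. No member was called with the replicate 4 term either, and RARS1 and LARS2 had an unadjusted p under 0.05, with changes of -0.18 ± 0.08 and -0.21 ± 0.09.

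The smallest unadjusted p-values at 30 min belonged to RARS1, AARS1 and NARS1 among cytosolic members and to HARS2, NARS2 and SARS2 among mitochondrial members. RARS1 had log2 values of 10.76, 10.62 and 10.66 at 30 min, against 10.89, 10.76, 10.93 and 10.65 at 0 min. NARS1 had 12.01, 11.84 and 11.80 at 30 min, against 11.91, 11.87, 12.21 and 11.91 at 0 min. NARS2 had 9.85, 9.82 and 9.85 at 30 min, against 9.86, 9.65, 9.78 and 9.44 at 0 min. In each of them, as in SARS2, which had 7.65, 7.99 and 8.25 at 30 min and 8.62, 8.36, 7.92 and 7.98 at 0 min, the times overlapped.

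At 24 h in BT20 the transcripts of 7 cytosolic synthetases were higher and those of 4 were lower, whereas 1 mitochondrial synthetase was higher and 5 were lower. Over all genes tested 24.1% were called higher and 18.3% lower. With the replicate 4 term the counts were 7 higher and 5 lower among cytosolic members and 1 higher and 7 lower among mitochondrial members, against 30.6% of all genes higher and 24.9% lower. The median change was 0.20 over the cytosolic members and -0.08 over the mitochondrial members, against 0.03 over all genes tested. These medians were 0.18, -0.29 and 0.03 with the replicate 4 term. On all 3 arrays at 24 h 9 cytosolic members lay above every 0 min array and 4 lay below, and 1 mitochondrial member lay above and 5 below; of all genes 26% lay above and 19.6% below.

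CARS1, the cytosolic cysteine enzyme (probe set 212971_at), had log2 values of 10.62, 10.37, 10.56 and 10.28 at 0 min in BT20, 10.40, 10.45 and 10.45 at 30 min, 11.29, 11.22 and 11.38 at 6 h, and 11.50, 11.58 and 11.57 at 24 h. Every array at 6 h and 24 h lay above every earlier array. The transcript rose by 0.84 ± 0.09 at 6 h (adjusted p = 0.000106) and by 1.10 ± 0.09 at 24 h (adjusted p = 1.8e-06), a 2.14-fold level at 24 h. AARS1, the cytosolic alanine enzyme (201000_at), had 11.89, 11.91, 11.61 and 11.47 at 0 min, 11.73, 11.91 and 12.00 at 30 min, 11.94, 12.03 and 11.72 at 6 h, and 12.65, 12.72 and 12.75 at 24 h. Its arrays at 6 h overlapped those at 0 min and its arrays at 24 h did not. AARS1 rose by 0.98 ± 0.13 at 24 h (adjusted p = 4.95e-05).

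WARS1, the tryptophan enzyme (200629_at), had 10.31, 10.14, 9.82 and 9.59 at 0 min, 9.79, 10.25 and 10.19 at 30 min, 9.64, 9.74 and 9.92 at 6 h, and 10.78, 10.86 and 10.95 at 24 h. The 24 h arrays were the highest of the 13, and WARS1 rose by 0.90 ± 0.17 (adjusted p = 0.000971). GARS1, the glycine enzyme of both compartments (208693_s_at), had 12.42, 12.53, 12.14 and 11.88 at 0 min, 12.10, 12.45 and 12.43 at 30 min, 12.28, 12.31 and 12.23 at 6 h, and 12.83, 12.73 and 12.84 at 24 h. It rose by 0.56 ± 0.15 at 24 h, with no overlap of the arrays. The other called rises were those of the tyrosine enzyme YARS1 (0.62 ± 0.09), of EPRS1, which joins the glutamate and proline enzymes in 1 protein (0.46 ± 0.10), and of the serine enzyme SARS1 (0.30 ± 0.09).

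KARS1, the lysine enzyme of both compartments (200840_at), showed no called change at any time on this probe set. Its values were 13.24, 13.28, 13.25 and 13.17 at 0 min, 13.29, 13.25 and 13.20 at 30 min, 13.22, 13.04 and 13.08 at 6 h, and 13.29, 13.21 and 13.23 at 24 h. The change at 24 h was 0.01 ± 0.08, and its sign turned with centring of the arrays (-0.03) and with repeated quantile normalization, so no direction is given. At 6 h its change was -0.12, and with the mean of both of its probe sets it was -0.38 and called lower (adjusted p = 0.0109). The second probe set alone changed by -0.64. The isoleucine, leucine, asparagine and threonine enzymes IARS1, LARS1, NARS1 and TARS1 had changes of 0.13 to 0.20 at 24 h that did not pass the test, with adjusted p-values of 0.0869 to 0.211.

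The 4 cytosolic members that fell at 24 h in BT20 were the valine enzyme VARS1, both chains of the phenylalanine enzyme, FARSA and FARSB, and the arginine enzyme RARS1. FARSB (223035_s_at) had 10.58, 10.63 and 10.80 at 24 h, against 11.32, 11.36, 11.53 and 11.33 at 0 min. All 3 arrays at 24 h lay below the lowest array at 0 min, and FARSB fell by 0.72 ± 0.09 on the log2 scale (adjusted p = 4.41e-05). FARSA, the other chain of the same enzyme (202159_at), had 8.99, 8.96 and 8.92 at 24 h, against 9.69, 9.68, 9.64 and 9.24 at 0 min. It fell by 0.61 ± 0.11 (adjusted p = 0.000672), and here too the arrays did not overlap.

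VARS1 (201797_s_at) had 7.86, 8.19 and 8.12 at 24 h, against 9.57, 9.75, 9.24 and 8.23 at 0 min, where replicate 4 was the lowest. It fell by 1.14 ± 0.30 (adjusted p = 0.008), and fell by 1.46 ± 0.18 against replicates 1 to 3. RARS1 fell by 0.27 ± 0.09 (adjusted p = 0.0253). HARS1, the cytosolic histidine enzyme (202042_at), had 10.19, 10.19 and 10.32 at 24 h, against 11.05, 10.93, 10.51 and 10.23 at 0 min. Its change of -0.44 ± 0.17 missed the threshold (adjusted p = 0.0505), and against replicates 1 to 3 it was -0.59 ± 0.13 (adjusted p = 0.0015). Left out alone, replicate 3 or replicate 4 of the 0 min arrays brought HARS1 past the threshold, with changes of -0.50 and -0.59.

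A list of genes commonly named as ATF4-induced held 12 analysed cytosolic members. Of these 7 rose and 1, VARS1, fell at 24 h in BT20, with a median change of 0.38. At that time 24.1% of all genes tested were called higher and 18.3% lower. Of the other 5 cytosolic members none rose by limma's test and 3 fell, with a median of -0.44. Those 5 comprise FARSA, FARSB, HARS1, KARS1 and RARS1, and 4 of them had an unadjusted p under 0.05, each with a negative change. All genes were not counted at that unadjusted level. Of the 5 analysed enzymes of the multisynthetase complex, a cytosolic assembly of several synthetases, EPRS1 rose, RARS1 fell and IARS1, KARS1 and LARS1 were not called. Among the 20 further genes listed as ATF4-responsive, 16 rose and 0 fell by the test at 24 h in BT20, with a median change of 0.90. In the fit with the replicate 4 term, where 30.6% of all genes were called higher and 24.9% lower, 19 rose and 0 fell. They include CHAC1, which degrades glutathione (4.01 ± 0.14), the asparagine synthetase ASNS (2.54 ± 0.12), and the stress-response genes NUPR1 (4.11 ± 0.17) and DDIT4 (4.17 ± 0.23).

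PARS2, the mitochondrial proline enzyme (227348_at), had log2 values of 6.77, 6.56, 6.51 and 6.87 at 0 min in BT20, 6.75, 6.46 and 6.46 at 30 min, 6.69, 6.78 and 6.79 at 6 h, and 7.89, 7.74 and 8.10 at 24 h. The values through 6 h overlapped and those at 24 h stood above all others. PARS2 rose by 1.24 ± 0.12 at 24 h (adjusted p = 5.3e-06), a 2.36-fold level, the highest change of any of the 32 members in this comparison. Proline in the cytosol is charged by EPRS1, whose rise is given above.

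WARS2, the mitochondrial tryptophan enzyme (222734_at), had 10.43, 10.54, 10.40 and 10.32 at 0 min in BT20, 10.17, 10.43 and 10.36 at 30 min, 10.31, 10.23 and 10.43 at 6 h, and 9.81, 9.67 and 9.86 at 24 h. The fall lay at 24 h, where no array overlapped the earlier ones, and measured 0.64 ± 0.10 on the log2 scale, a level 0.64-fold that at 0 min (adjusted p = 0.000171). AARS2, the mitochondrial alanine enzyme (230024_at), had 8.57, 8.62 and 8.80 at 24 h, against 9.27, 9.13, 9.17 and 8.85 at 0 min. AARS2 fell by 0.44 ± 0.11 (adjusted p = 0.00614), and its highest array at 24 h lay just under its lowest at 0 min.

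MARS2 (243529_at) had 7.42, 7.77, 7.85 and 9.91 at 0 min in BT20, 8.11, 7.30 and 7.81 at 30 min, 8.88, 8.90 and 8.68 at 6 h, and 6.29, 6.24 and 6.65 at 24 h. Replicate 4 at 0 min lay above all other BT20 arrays, and the 24 h arrays below all others. The fall at 24 h was 1.85 ± 0.46 against all 4 arrays (adjusted p = 0.00628) and 1.29 ± 0.19 against replicates 1 to 3. The serine and asparagine enzymes SARS2 and NARS2 also fell at 24 h, by 0.57 ± 0.17 and 0.37 ± 0.10. The remaining 9 mitochondrial members had changes of -0.29 to 0.18 and were not called. With the replicate 4 term CARS2 and LARS2, the cysteine and leucine enzymes, were called lower as well, at -0.50 ± 0.13 and -0.44 ± 0.09.

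**Figure D1:**
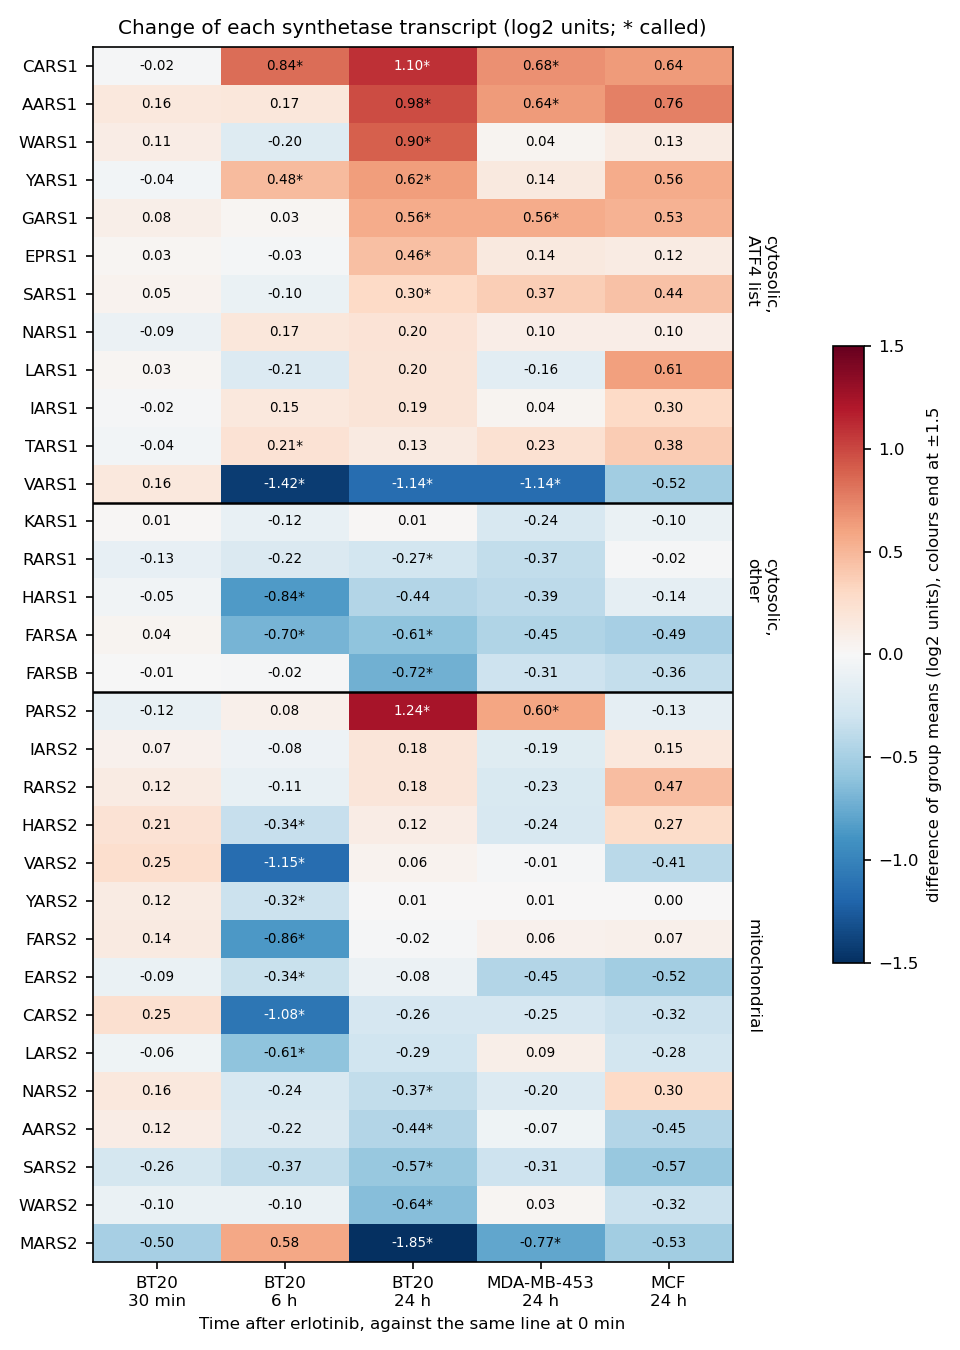
Change of each of the 32 members against 0 min of the same line in log2 units, with columns for BT20 at 30 min, 6 h and 24 h and for MDA-MB-453 and MCF at 24 h. Red is higher and blue lower than at 0 min, an asterisk marks an adjusted p under 0.05, and the rises at 24 h in BT20 lie mostly in the upper block of cytosolic genes listed as ATF4-induced.

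The cytosolic and mitochondrial enzymes for the same amino acid were set side by side for the 11 amino acids whose genes differ in name only by the final digit. Phenylalanine, proline and glutamate were left out of these pairs because their genes are named otherwise. For them, at 24 h in BT20, FARSA and FARSB changed by -0.61 and -0.72, beside -0.02 for FARS2. EPRS1 changed by 0.46, beside 1.24 for PARS2 and -0.08 for EARS2. At 24 h in BT20 the cytosolic change was positive and the mitochondrial change negative for 6 of the 11. For tryptophan WARS1 rose by 0.90 and WARS2 fell by 0.64; for alanine AARS1 rose by 0.98 and AARS2 fell by 0.44; for serine SARS1 rose by 0.30 and SARS2 fell by 0.57. For histidine the order was the other way round, with HARS1 at -0.44 and HARS2 at 0.12, neither called. For valine VARS1 fell by 1.14, and VARS2 had a change of 0.06 ± 0.25. The cytosolic change exceeded the mitochondrial one for 8 of 11 amino acids in BT20 at 24 h, and for 7 of 11 in MDA-MB-453 and 7 of 11 in MCF. In BT20 it did so for 4 of 11 at 30 min and for 7 of 11 at 6 h, against all 4 arrays at 0 min. Whether these counts differ from an even split was not tested.

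HARS1 and HARS2 lie head to head with 84 bases between their starts, and their promoter windows share 184 bases. The stretch between the starts, at chr5:140691371-140691454 and read in the direction of HARS2, is shown because both genes start from it, and at 24 h neither was called against all 4 arrays at 0 min.
HARS1-HARS2: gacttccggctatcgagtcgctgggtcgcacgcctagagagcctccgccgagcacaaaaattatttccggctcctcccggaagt
HARS2 (209252_at), the mitochondrial histidine enzyme, had 9.68, 9.88, 9.55 and 9.43 at 0 min in BT20, 9.53, 9.99 and 10.03 at 30 min, 9.24, 9.32 and 9.31 at 6 h, and 9.75, 9.76 and 9.75 at 24 h. Its 6 h arrays were the lowest, and its 24 h arrays lay among those at 0 min. HARS1 had 10.47, 10.66 and 10.74 at 30 min and 9.92, 9.79 and 9.78 at 6 h, and stayed below replicates 1 to 3 of the 0 min arrays at 24 h. HARS1 and HARS2 are related copies, and cross-hybridisation between their probe sets was not tested.

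Averaged over the members of a compartment on each array, and set against the 0 min mean of the same line, the cytosolic shift exceeded the mitochondrial shift by -0.06 to 0.04 log2 units on the BT20 arrays at 0 min, by -0.04 to 0.03 at 30 min, by 0.21 to 0.28 at 6 h and by 0.27 to 0.39 at 24 h. The arrays at 6 h and 24 h did not overlap the earlier ones. In MDA-MB-453 this difference was 0.08 to 0.17 at 24 h, against -0.02 to 0.04 at 0 min. In MCF it was 0.23 to 0.49 at 24 h, against -0.20 to 0.11 at 0 min. In none of the 3 lines did the 24 h arrays overlap those at 0 min in this difference, although the cytosolic mean alone overlapped in each line, in BT20 with 0.11 to 0.18 at 24 h against -0.23 to 0.12 at 0 min. At 6 h in BT20 the cytosolic mean lay at -0.12 to -0.09 and the mitochondrial mean at -0.37 to -0.31, set against all 4 arrays at 0 min. Set against replicate 4 alone, the cytosolic mean at 6 h lay higher, by 0.11 to 0.14, and the mitochondrial mean at -0.20 to -0.14, a difference of 0.27 to 0.34 between them. The sign of the cytosolic mean at 6 h thus depended on which control arrays were used. The median shift of all genes stayed between -0.04 and 0.05 on every array. These averages describe the arrays and carry no test.

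**Figure D2:**
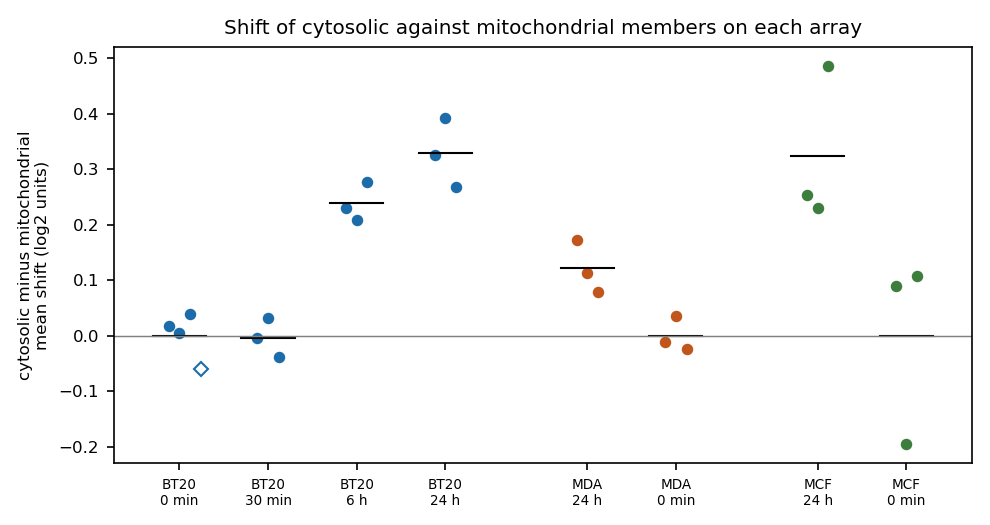
Mean shift of the 17 cytosolic minus that of the 15 mitochondrial members on each array, in log2 units against the 0 min mean of the same line. Points are arrays, bars are group means and the open diamond is replicate 4 of BT20 at 0 min; the 24 h arrays lie above the 0 min arrays in each line, between 0.27 and 0.39 in BT20.

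At 6 h in BT20 the calls among synthetases depended on replicate 4 of the 0 min arrays. Against all 4 arrays at 0 min CARS1, YARS1 and the threonine enzyme TARS1 were called higher, FARSA, HARS1 and VARS1 lower, and 7 mitochondrial members lower with 0 higher. Over all genes tested 26.1% were called higher and 25.9% lower. Against replicate 4 alone CARS1 (1.02 ± 0.12) and YARS1 (0.61 ± 0.13) were called higher, and FARSA (-0.38 ± 0.10) and MARS2 (-1.09 ± 0.26) lower; of all genes 3.62% were called higher and 3.61% lower. CARS1, YARS1 and FARSA were called in the same direction both ways. The median change over the mitochondrial members was -0.32 against all 4 arrays and -0.11 against replicate 4.

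The 7 mitochondrial members called lower at 6 h against all 4 arrays were CARS2, EARS2 (glutamate), FARS2 (phenylalanine), HARS2, LARS2, VARS2 and YARS2 (tyrosine). CARS2 (218153_at) had 9.43, 9.57, 9.25 and 8.44 at 0 min, 9.29, 9.41 and 9.54 at 30 min, 7.92, 8.38 and 7.96 at 6 h, and 8.92, 8.88 and 8.95 at 24 h. Its 6 h arrays were the lowest, with replicate 4 at 0 min close above them. The change at 6 h was -1.08 ± 0.22 against all 4 arrays (adjusted p = 0.00306) and -0.35 ± 0.18 against replicate 4, which was not called.

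VARS2 (226200_at) had 9.51, 9.61, 9.13 and 8.48 at 0 min, 9.08, 9.66 and 9.55 at 30 min, 7.70, 8.11 and 8.29 at 6 h, and 9.30, 9.10 and 9.31 at 24 h. LARS2 (34764_at) had 9.90, 9.89, 9.87 and 9.29 at 0 min, 9.66, 9.74 and 9.64 at 30 min, 9.26, 9.02 and 9.12 at 6 h, and 9.53, 9.30 and 9.51 at 24 h. In both, replicate 4 was the lowest array at 0 min. VARS2 changed by -1.15 ± 0.25 and LARS2 by -0.61 ± 0.14 at 6 h against all 4 arrays, and by -0.44 ± 0.26 and -0.16 ± 0.13, not called, against replicate 4. Without replicate 4 the count of mitochondrial members called lower was 10. It was 4 without replicate 1 or 2 at 0 min or without replicate 1 or 3 at 6 h. The shares of all genes called in these fits were not counted, so these counts are not read as a stronger or weaker mitochondrial fall.

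YARS1 (212048_s_at) had 11.50, 11.41, 11.44 and 11.28 at 0 min, 11.35, 11.41 and 11.34 at 30 min, 11.76, 11.83 and 12.06 at 6 h, and 12.08, 11.96 and 12.06 at 24 h, so the last 2 times lay above the first 2. FARSA had 9.55, 9.68 and 9.59 at 30 min and 8.85, 8.87 and 8.88 at 6 h, and at 6 h it lay below all 0 min arrays, replicate 4 included. VARS1 had 8.97, 9.63 and 9.47 at 30 min and 7.58, 7.84 and 7.92 at 6 h. Its change at 6 h was -1.42 ± 0.30 against all 4 arrays (adjusted p = 0.00324) and -0.45 ± 0.25 against replicate 4 (adjusted p = 0.304). MARS2 changed sign, at 0.58 ± 0.46 against all 4 arrays (adjusted p = 0.306) and -1.09 ± 0.26 against replicate 4 (adjusted p = 0.0259). Of the 20 listed ATF4-responsive genes 15 rose and 1 fell against all 4 arrays, beside 26.1% of all genes called higher and 25.9% lower. The median change of the 20 was 1.01 against all 4 arrays and 0.88 against replicate 4 alone. CHAC1 changed by 3.55 ± 0.14 against all 4 arrays and by 3.46 ± 0.21 against replicate 4.

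**Figure D3:**
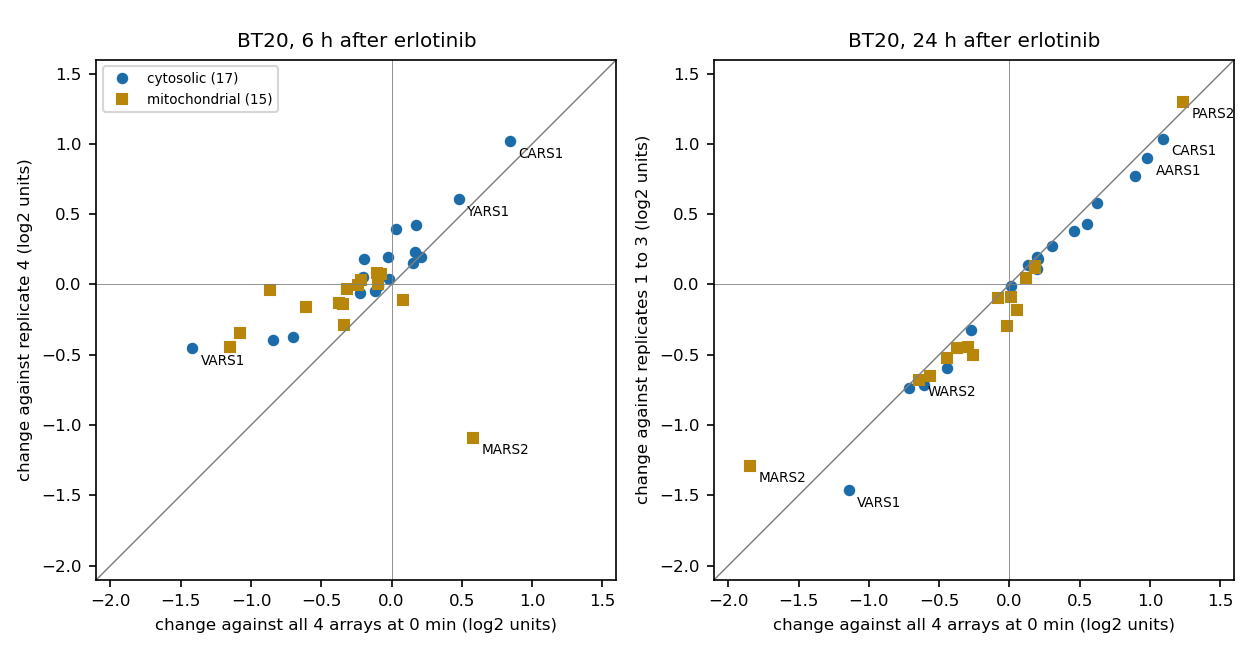
Change of each member in BT20 at 6 h and at 24 h in log2 units, with the change against all 4 arrays at 0 min on the x axis and the change with a replicate 4 term, against replicate 4 alone (6 h) or replicates 1 to 3 (24 h), on the y axis. At 6 h most members lie nearer 0 against replicate 4 and MARS2 changes sign; at 24 h most points lie near the line of equal values.

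In MDA-MB-453 at 24 h, 3 cytosolic members and 1 mitochondrial member rose, and 1 of each fell. Over all genes tested 5.66% were called higher and 2.64% lower. CARS1 had 10.97, 10.76 and 11.06 at 24 h, against 10.31, 10.23 and 10.21 at 0 min, a rise of 0.68 ± 0.11 (adjusted p = 0.0158). AARS1 had 10.98, 11.24 and 10.96 at 24 h, against 10.55, 10.39 and 10.33 at 0 min, a rise of 0.64 ± 0.12 (adjusted p = 0.0256). In both genes the lowest array at 24 h lay above the highest at 0 min.

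GARS1 had 12.51, 12.52 and 12.45 at 24 h, against 11.74, 12.10 and 11.96 at 0 min, a rise of 0.56 ± 0.11 (adjusted p = 0.0336). PARS2 had 7.07, 6.84 and 7.25 at 24 h, against 6.51, 6.41 and 6.46 at 0 min, a rise of 0.60 ± 0.12 (adjusted p = 0.0351). The 2 members that fell were VARS1 and MARS2. VARS1 had 6.72, 6.17 and 6.28 at 24 h, against 7.35, 7.87 and 7.36 at 0 min, and fell by 1.14 ± 0.20 (adjusted p = 0.0227). MARS2 had 7.56, 7.63 and 7.55 at 24 h, against 8.32, 8.10 and 8.65 at 0 min, and fell by 0.77 ± 0.15 (adjusted p = 0.0283). All 6 members were called in the same direction at 24 h in BT20, with no array in common. They are 100% of the 6 calls in MDA-MB-453 and 35.3% of the 17 in BT20. The same share was not counted over all genes, of which 24.1% were called higher and 18.3% lower at 24 h in BT20.

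With 3 arrays per group these calls lay close to the threshold. GARS1 lost its call when any 1 of the 6 arrays was left out. CARS1 and AARS1 lost theirs without replicate 1, 2 or 3 at 0 min or replicate 1 at 24 h. VARS1 kept its call only without replicate 1 at 24 h, MARS2 only without replicate 2 at 0 min and PARS2 only without replicate 2 at 24 h. The changes themselves stayed between 0.46 and 0.77 for the 4 that rose. They stayed between -1.30 and -0.97 for VARS1 and between -0.90 and -0.63 for MARS2.

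Among the other members WARS1 had 10.84, 10.62 and 10.97 at 24 h in MDA-MB-453, against 10.73, 11.00 and 10.59 at 0 min. WARS2 had 8.34, 8.12 and 8.45 at 24 h, against 8.29, 8.31 and 8.22 at 0 min. Both sets of arrays overlapped, with changes of 0.04 ± 0.15 and 0.03 ± 0.11 whose signs turned under other scalings. HARS1 had 10.03, 9.84 and 9.96 at 24 h, against 10.34, 10.42 and 10.26 at 0 min, and HARS2 had 9.74, 9.93 and 9.94, against 10.14, 10.08 and 10.10. KARS1 had 12.23, 12.29 and 12.16 at 24 h, against 12.44, 12.45 and 12.53 at 0 min. These 3 did not overlap between the times but missed the threshold, with changes of -0.39 ± 0.10, -0.24 ± 0.10 and -0.24 ± 0.09. EARS2 had 8.76, 8.82 and 8.43 at 24 h, against 9.12, 8.95 and 9.28 at 0 min, a change of -0.45 ± 0.15 (adjusted p = 0.117). Of the cytosolic members 6 lay above and 6 below all arrays at 0 min, and of the mitochondrial members 1 above and 4 below, beside 17.6% and 12.5% of all genes. The median change was 0.04 over cytosolic and -0.19 over mitochondrial members, against 0.02 over all genes.

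Of the 12 analysed cytosolic genes listed as ATF4-induced, 3 rose and 1 fell in MDA-MB-453, with a median of 0.14. In this line 5.66% of all genes tested were called higher and 2.64% lower. Of the 20 further ATF4-responsive genes 11 rose and 0 fell, with a median of 0.66. CHAC1 rose by 2.75 ± 0.09, ASNS by 1.85 ± 0.12, the transcription factor gene ATF3 by 1.33 ± 0.12, and PHGDH, of serine synthesis, by 1.75 ± 0.20.

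**Figure D4:**
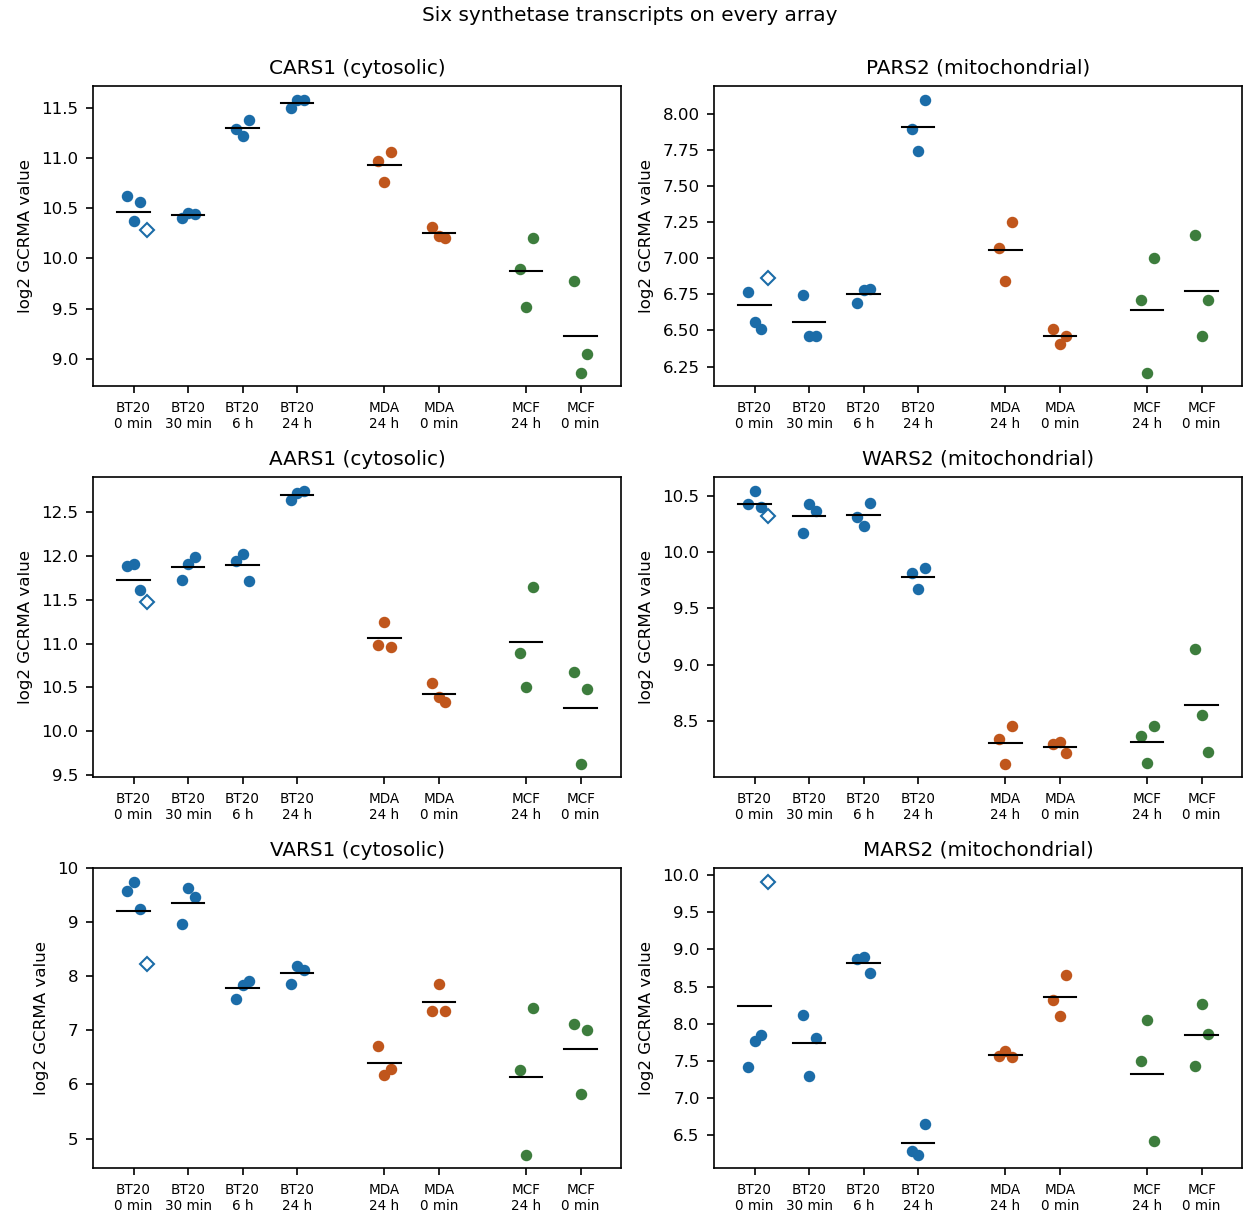
Log2 values of CARS1, AARS1, VARS1, PARS2, WARS2 and MARS2 on every array, by line and time; points are arrays, bars are group means and the open diamond is replicate 4 of BT20 at 0 min. CARS1 and PARS2 at 24 h lie above 0 min in BT20 and MDA-MB-453, WARS2 lies lower in BT20, and the MCF arrays of a group spread widely.

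In MCF at 24 h no member was called by limma in the fit to that line, and 0 members had an unadjusted p under 0.05. On simulated data that fit called none of the genes given a change of 1 log2 unit. The lack of calls therefore does not show that the members were unchanged. Over all genes tested 0% were called higher and 0.00791% lower in MCF. In the fit to all 25 arrays no member was called either, while 1.17% of all genes were called higher and 2.02% lower. The MCF arrays differed more among themselves: the SD between replicates, as a median over the 32 members, was 0.44 at 24 h and 0.42 at 0 min, against 0.06 at 24 h and 0.18 at 0 min in BT20. CARS1 had 9.89, 9.52 and 10.21 at 24 h in MCF, against 9.77, 8.86 and 9.05 at 0 min, a change of 0.64 ± 0.31. AARS1 had 10.89, 10.51 and 11.65 at 24 h, against 10.68, 9.62 and 10.48 at 0 min, a change of 0.76 ± 0.40. In both the times overlapped. TARS1 had 12.51, 12.64 and 12.26 at 24 h, against 11.93, 12.19 and 12.16 at 0 min. It was the only member whose MCF arrays did not overlap, where 5.46% of all genes lay above all arrays at 0 min and 6.32% below. Its change of 0.38 ± 0.17 had an adjusted p of 0.927.

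GARS1 had 12.07, 11.75 and 12.70 at 24 h in MCF, against 12.10, 11.28 and 11.56 at 0 min. WARS1 had 10.02, 8.68 and 10.89 at 24 h, against 10.79, 8.26 and 10.16 at 0 min, a wide spread within each time. KARS1 had 12.57, 12.61 and 12.60 at 24 h, against 12.85, 12.51 and 12.71 at 0 min, the narrowest of these sets at 24 h. Of the 12 cytosolic genes listed as ATF4-induced 11 had a positive change in MCF, with a median of 0.41, and none passed the test. The 5 other cytosolic members all had a negative change, with a median of -0.14. The mitochondrial median was -0.28, against -0.01 over all genes. WARS2 had 8.37, 8.13 and 8.46 at 24 h, against 9.14, 8.56 and 8.23 at 0 min. HARS1 had 10.63, 10.18 and 10.97 at 24 h, against 10.81, 10.54 and 10.86 at 0 min, and HARS2 had 10.00, 9.79 and 10.50, against 10.06, 9.67 and 9.75. EARS2 had 8.55, 8.26 and 7.77 at 24 h, against 8.71, 8.91 and 8.52 at 0 min, a change of -0.52 ± 0.24. AARS2 had 4.62, 3.87 and 4.91 at 24 h, against 4.83, 4.96 and 4.94 at 0 min, which is near the filter level, so the size of its change is inexact.

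The 24 h changes of BT20 and MDA-MB-453 were tested against each other in a fit to the arrays of both lines. Of the cytosolic members 3 had a higher change in BT20 and 1 a lower change, and of the mitochondrial members 1 and 1. Over all genes 11.4% had a higher and 10.4% a lower change in BT20. WARS1 differed by 0.86 ± 0.24 (adjusted p = 0.0165), YARS1 by 0.48 ± 0.13 (adjusted p = 0.011) and CARS1 by 0.41 ± 0.14 (adjusted p = 0.0424). FARSB differed by -0.40 ± 0.13 (adjusted p = 0.032), with a change of -0.72 in BT20 and of -0.31, not called, in MDA-MB-453.

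PARS2 differed between these lines by 0.64 ± 0.18 (adjusted p = 0.0145) and WARS2 by -0.67 ± 0.14 (adjusted p = 0.00243). AARS1, GARS1 and MARS2, called in both lines, differed by 0.35 ± 0.18, -0.01 ± 0.20 and -1.07 ± 0.59, which did not pass the test. VARS1, with a change of -1.14 in each line, had a standard error of 0.41 for the difference. With 1 array left out, the difference of CARS1 passed only without replicate 1, 3 or 4 of BT20 at 0 min or replicate 3 of MDA-MB-453 at 24 h. That of FARSB was lost without replicate 3 of BT20 at 0 min, replicate 1 or 2 of BT20 at 24 h, replicate 2 of MDA-MB-453 at 0 min, or replicate 1 or 2 of MDA-MB-453 at 24 h. With all probe sets of a gene averaged, YARS1 differed by 0.15 and FARSB by -0.52, and neither passed.

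Between BT20 and MCF, PARS2 differed by 1.37 ± 0.27 (adjusted p = 0.00245) and NARS2 by -0.67 ± 0.18 (adjusted p = 0.0192). PARS2 averaged 6.64 ± 0.40 at 24 h in MCF, against 6.77 ± 0.35 at 0 min (SD, n = 3 each), so the times overlapped. NARS2 (219217_at) had 9.29, 9.30 and 9.35 at 24 h in BT20, against 9.86, 9.65, 9.78 and 9.44 at 0 min. In MCF NARS2 had 9.31, 9.65 and 9.18 at 24 h, against 9.21, 9.03 and 9.01 at 0 min. No cytosolic member differed between BT20 and MCF by limma, with 0 at an unadjusted p under 0.05; over all genes 8.53% had a higher and 4.92% a lower change in BT20. This fit gives both lines 1 common spread although MCF spread more widely, and on simulated data with each line's own spread it made more false calls between BT20 and MCF than the threshold allows. With array weights estimated per line PARS2 still passed (adjusted p = 0.00806) and NARS2 did not (adjusted p = 0.0837). Between MDA-MB-453 and MCF no member differed by limma, where 0.759% of all genes were called with a higher change in MDA-MB-453 and 0.142% with a lower one. The 2 mitochondrial members NARS2 and PARS2 had an unadjusted p under 0.05, a level at which all genes were not counted.

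The change of WARS1 in BT20 was set beside interferon-responsive genes, of which 5 were tested. At 24 h in BT20, where 24.1% of all genes were called higher and 18.3% lower, 4 of them rose and 0 fell: the proteasome subunit PSMB9 by 1.86 ± 0.10, the ubiquitin-like conjugating enzyme UBE2L6 by 1.98 ± 0.14, the transcription factor IRF1 by 1.75 ± 0.14 and the guanylate-binding protein GBP1 by 0.46 ± 0.17. GBP1 was not called with the replicate 4 term, at 0.32 ± 0.14. At 6 h against all 4 arrays at 0 min, where 26.1% of all genes were called higher and 25.9% lower, 0 rose and 2 fell, and WARS1 had a change of -0.20 ± 0.17. With the replicate 4 term, where 3.62% of all genes were called higher and 3.61% lower, 0 rose and 1 fell, GBP1, and WARS1 had a change of 0.18. In MDA-MB-453, where WARS1 was not called, 0 of the 5 passed limma's test, beside 5.66% of all genes called higher and 2.64% lower. Their changes there were -0.12 to 0.18. In MCF, where WARS1 was not called either, 0 of the 5 passed, beside 0% of all genes called higher and 0.00791% lower. This MCF count does not show that the 5 genes were unchanged. In both lines 0 of the 5 had an unadjusted p under 0.05, a level at which all genes were not counted. Whether WARS1 and these genes changed together across the lines was not tested.

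Many members are measured by several probe sets. Of 17 members with more than 1 usable probe set, 16 had changes of the same direction in all of them at 24 h in BT20, among them all 10 that were called. At 6 h 13 of the 17 did so, and 7 of the 8 that were called, YARS1 being the exception. EPRS1, LARS1 and SARS1, not called at 6 h, also disagreed. Against all 4 arrays at 0 min their chosen probe sets changed by -0.03, -0.21 and -0.10. Their other probe sets changed by 0.12 and 0.85 in EPRS1, 0.13 to 0.68 in LARS1 and 1.09 in SARS1. In MDA-MB-453 11 of the 17 had changes of the same direction in all probe sets, among them both that were called. The count was 10 of 17 at 30 min in BT20 and 14 of 17 in MCF, where none was called by limma.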

How the data were processed

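The deposited table holds log2 values per probe set that the authors made with GCRMA 2.20.0 in R 2.11.1, per the submitters' processing notes. GCRMA estimates background from probe sequence, brings the arrays to a common scale and combines the probes of a set. The deposited log2 values were used as they are. The table holds 54613 probe sets, of which 41091 carried exactly 1 symbol in the platform annotation, 1801 several and 11721 none. The upper quartile lay at 7.65 to 7.81 on the 19 arrays that the labels call Part 1 (BT20, MDA-MB-453) and at 7.27 to 7.32 on the 6 arrays of Part 2 (MCF), so the parts were compared only through changes within a line. For arrays, their number limits the precision.

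Each line was fitted alone with limma 3.58.1 in R 4.3.3 (lmFit, eBayes), with 1 mean per time point, and the differences between lines were fitted to the arrays of both lines. This left 9 residual degrees of freedom in BT20 and 4 each in MDA-MB-453 and MCF. The fits were tested on simulated data with each line's own spread: a change of 1 log2 unit was called in none of the changed genes in MCF, and the difference between BT20 and MCF had too many false calls, so it is also given with array weights estimated per line. Values on every array are given for the 3 cytosolic and 3 mitochondrial members with the smallest p in each line's comparisons, and for AARS1, GARS1, KARS1, WARS1, WARS2, HARS1 and HARS2. MARS2 at 6 h was described after its values were seen. From the lists of other genes at most 4 per comparison are named, those with the smallest p. The members, the lists, the motif and the replicate 4 term were chosen with earlier results of these data known. The labels do not say whether replicate numbers pair the samples, and the main fits used no pairing. Deviations from the group mean correlated at -0.49 to 0.36 for same-numbered BT20 arrays, -0.64 to 0.16 in MDA-MB-453 and -0.49 to 0.80 in MCF. For arrays of different numbers the ranges were -0.54 to 0.38 in BT20, -0.29 to 0.67 in MDA-MB-453 and -0.85 to 0.77 in MCF. These ranges overlap and do not settle whether the samples were paired. Alternatives were other filters, all probe sets of a gene averaged, centring, repeated quantile normalization, a trended prior, a fit to all 25 arrays, array weights, a replicate 4 term, a replicate block and leaving out each array.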

Additional observations from a re-analysis of the deposited data

Results flagged for a closer look

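Among the 4 BT20 arrays at 0 min a single array lay far from the others in 4 of the 32 members. In independent groups chance flags about 1 in 20. The members share these arrays, and the same share was not counted over all genes, so the count is not read as a result about the synthetases. FARSA had its lowest value, 9.24, on replicate 4, and the next array had 9.64. LARS2 had its lowest value, 9.29, on replicate 4, and the next array had 9.87. FARSB had its highest value, 11.53, on replicate 3, against 11.36 on the next array, and NARS1 its highest value, 12.21, on replicate 3, against 11.91. MARS2 was not flagged by this rule, with 9.91 on replicate 4 against 7.85 on the next array.

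The 24 h change differed between lines, by a test of the difference, for 7 members. Between BT20 and MDA-MB-453 it differed by 0.86 for WARS1, 0.64 for PARS2, 0.48 for YARS1, 0.41 for CARS1, -0.40 for FARSB and -0.67 for WARS2. Between BT20 and MCF it differed by 1.37 for PARS2 and -0.67 for NARS2, the second not passing with array weights estimated per line (adjusted p = 0.0837). Over all genes 11.4% had a higher and 10.4% a lower change in BT20 than in MDA-MB-453. Against MCF these shares were 8.53% and 4.92%.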

How the results depend on the processing

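Every count of called members that moved by more than 1.5 times, and every change of sign among GARS1, HARS1, KARS1, WARS1 and WARS2, is given here; the causes were not tested. MARS2 at 6 h in BT20 also turned sign, at -1.09 with the replicate 4 term. KARS1 at 6 h gained a call with all probe sets averaged, at -0.38 (adjusted p = 0.0109). At 24 h in BT20 the fit to all 25 arrays called 4 cytosolic members higher and 2 lower. At 6 h in BT20 the cytosolic members called higher were 6 with all probe sets of a gene averaged. Those called lower were 5 with that mean, with repeated quantile normalization and with the replicate block, and 1 with the replicate 4 term. The mitochondrial members called lower at 6 h were 4 without a filter, 3 in the fit to all 25 arrays and 1 with the replicate 4 term, and 1 was called higher with the replicate block. In MDA-MB-453 the replicate block left 0 calls of any kind, and the fit to all 25 arrays left 1 cytosolic member higher and 0 in the other 3 counts. The cytosolic members called lower there were 3 with a filter at 6 and with centring, 2 with repeated quantile normalization and 4 with a trended prior, and the mitochondrial members higher were 0 with quantile normalization and the trended prior. For BT20 against MDA-MB-453 the fit to all 25 arrays left 0 cytosolic members in either direction and 0 mitochondrial members higher, and the mean of probe sets left 0 cytosolic members lower. The mitochondrial members with a higher change were 2 with a trended prior, and those with a lower change were 3 with the replicate block and with the replicate 4 term. For BT20 against MCF the mean of probe sets called 1 cytosolic member higher and 1 lower, and array weights left 0 mitochondrial members lower. The replicate block, which treats same-numbered arrays as paired although the labels give no pairing, changed no other of these counts by that much.

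Leaving out each array in turn gave, at 6 h in BT20, 3 to 5 cytosolic members lower, 0 to 1 mitochondrial member higher and 4 to 10 lower. It gave 0 to 2 cytosolic members higher and 0 to 1 in each other count in MDA-MB-453. For BT20 against MDA-MB-453 it gave 0 to 1 cytosolic member lower, and 1 to 2 mitochondrial members higher and 1 to 3 lower. The shares of all genes called with an array left out were not counted.

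None of the changes of those 5 genes that turned sign was called. At 30 min in BT20 GARS1, KARS1 and WARS1 stood at -0.040, -0.010 and -0.014 with the block and with the replicate 4 term. At 6 h GARS1 stood at -0.0036 with quantile normalization and -0.093 with the block, and WARS1 and WARS2 at 0.18 and 0.0037 with the replicate 4 term. At 24 h KARS1 stood at -0.033 with centring, -0.065 with the mean of probe sets, -0.00023 with quantile normalization, and -0.010 with the block and the replicate 4 term. In MDA-MB-453 WARS1 stood at -0.0047 with centring and -0.098 with the mean of probe sets, and WARS2 at -0.011, -0.11 and, with quantile normalization, -0.045. With 1 array left out, the range at 30 min was -0.040 to 0.20 for GARS1, -0.20 to 0.069 for HARS1, -0.010 to 0.0345 for KARS1 and -0.014 to 0.26 for WARS1. It was -0.093 to 0.13 for GARS1 at 6 h and -0.013 to 0.0285 for KARS1 at 24 h. In MDA-MB-453 it was -0.056 to 0.15 for WARS1 and -0.042 to 0.12 for WARS2, and in MCF -0.33 to 0.066 for HARS1 and -0.61 to 0.72 for WARS1.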

Other observations

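Of 12 tested partners of mitochondrial translation 2 rose and 2 fell at 24 h in BT20, beside 24.1% of all genes called higher and 18.3% lower. GATB and GATC, subunits of the amidotransferase that completes mitochondrial glutaminyl-tRNA, rose by 1.54 ± 0.15 and 0.69 ± 0.16. MTFMT, which formylates the initiator methionyl-tRNA that MARS2 charges, fell by 0.75 ± 0.13, and the ribosome recycling factor MRRF fell by 0.75 ± 0.11. With the replicate 4 term these 4 changes were 1.42 ± 0.12, 0.57 ± 0.14, -0.65 ± 0.10 and -0.73 ± 0.11, and in all 2 of the 12 rose and 5 fell, beside 30.6% of all genes higher and 24.9% lower. At 6 h 1 of the 12 rose and 5 fell against all 4 arrays at 0 min, beside 26.1% of all genes called higher and 25.9% lower. The median change of the 12 at 6 h was -0.32 against all 4 arrays and -0.05 against replicate 4 alone. In MDA-MB-453, where 5.66% of all genes were called higher and 2.64% lower, none was called by limma and 3 had an unadjusted p under 0.05. In MCF, where 0% of all genes were called higher and 0.00791% lower, none was called and 0 had such a p. All genes were not counted at the unadjusted level.

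Of 6 tested cytosolic elongation and initiation factors 0 rose and 1 fell at 24 h in BT20, EIF5A by 0.37 ± 0.11, beside the 18.3% of all genes called lower. With the replicate 4 term 2 fell, EIF5A by 0.39 ± 0.11 and EIF3B by 0.86 ± 0.14, beside 24.9% of all genes; EIF3B had -0.55 ± 0.27 against all 4 arrays and was not called. AIMP1, the 1 scaffold gene of the multisynthetase complex analysed, had a change of -0.13 ± 0.15 at 24 h and rose by 0.52 ± 0.15 at 6 h against all 4 arrays, but had 0.07 against replicate 4 alone.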
